A study of Mus musculus with 12 samples.

Results

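Cells carry proteins that recognise nucleic acids in the cytosol, where intact DNA and double-stranded RNA are normally scarce. 6 genes of this system were taken by their symbols from a table of 756 genes measured in mouse hippocampus: Zbp1, Ddx58 (RIG-I), Ifih1 (MDA5), Mavs, Mb21d1 (cGAS) and Tmem173 (STING). All 6 were present, and all 6 had the mean of at least 20 normalized counts over the mice that was asked for before testing. RIG-I and MDA5 are helicases that bind double-stranded or viral RNA and signal through MAVS, an adaptor on mitochondria. cGAS binds double-stranded DNA and makes a cyclic dinucleotide that switches on STING, an adaptor of the endoplasmic reticulum. ZBP1 binds nucleic acids in the left-handed Z form and can start cell death through RIP kinases. Both adaptors lead to the kinases TBK1 and IKK-epsilon, to the factors IRF3 and IRF7 and to type I interferon. Interferon in turn raises the sensors, so that RIG-I, MDA5 and ZBP1 are themselves classed as interferon-induced genes. In brain, microglia are a main site of this response.

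RNA came from 12 mice, 4 in each of 3 groups. The first group was 5xFAD mice given TPPU, an inhibitor of soluble epoxide hydrolase, at 3 mg/kg in the drinking water for 2.5 months from the age of 2 months. The other groups were 5xFAD mice given vehicle and non-transgenic (N-tg) littermates given vehicle, and the solvent of all 3 groups was 1% polyethylene glycol. The 5xFAD line models inherited Alzheimer's disease through mutated human transgenes that the Thy1 promoter drives in neurons. The assay was NanoString's nCounter with its mouse neuroinflammation probes, which carry barcodes, bind RNA directly and are counted without amplification, and the deposited values were normalized to housekeeping genes.

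Total probe counts lay between 1050334 and 1314362 per mouse. They were lower in all TPPU-treated mice (1050334 to 1116704) than in all non-transgenic mice (1156713 to 1314362). The scaling factors held in the deposited values were 1.03 to 1.09 in TPPU-treated mice and 0.871 to 0.993 in non-transgenic mice. The labels call the mice male, yet the Y-linked genes Uty and Kdm5d stood at 366 to 518 and 306 to 369 normalized counts in 6 mice, 2 of each group, and at 15.2 to 33.5 and 14.2 to 22.8 in the other 6. Ttr, a choroid plexus transcript, reached 4270 in 5xFAD vehicle mouse 1 and 16461 in non-transgenic mouse 4, against 77.1 to 284 elsewhere. Changes within mice of like Y-linked counts, and without both mice of high Ttr, are therefore given beside the calls. The 8 neuronal markers summed to 53934 to 70068 in all groups; no list used here tells the hippocampus from other brain regions.

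Of the 6 genes, Zbp1 had the largest fold change between the genotypes and the largest fold difference between the treatments. Its normalized counts were 26.6, 20.3, 32.8 and 29.9 in TPPU-treated 5xFAD mice (mice 1 to 4), 92.7, 81.1, 49.7 and 71.9 in vehicle-treated 5xFAD mice, and 39.2, 20.8, 12.5 and 12.4 in non-transgenic mice. Every vehicle-treated 5xFAD mouse lay above every mouse of the other groups, while the TPPU-treated and non-transgenic mice overlapped. The means were 27.4 ± 5.38, 73.8 ± 18.2 and 21.2 ± 12.6 in that order of groups (SD, n = 4 each). Zbp1 rose 3.65-fold in vehicle-treated 5xFAD over non-transgenic mice, with a log2 change of 1.87 (SE 0.34, limma adjusted p = 0.00234). These are low counts: non-transgenic mouse 2 and all 4 TPPU-treated mice were within the 15.2 to 33.5 that Uty showed in mice with low Y-linked counts, and non-transgenic mice 3 and 4 were below it. Whether such values stand above the probe background was not tested. The counts behind the lowest of these values, 13 in non-transgenic mouse 4, have an exact 95% Poisson interval of 6.92 to 22.2, which covers counting error only.

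**Figure D1:**
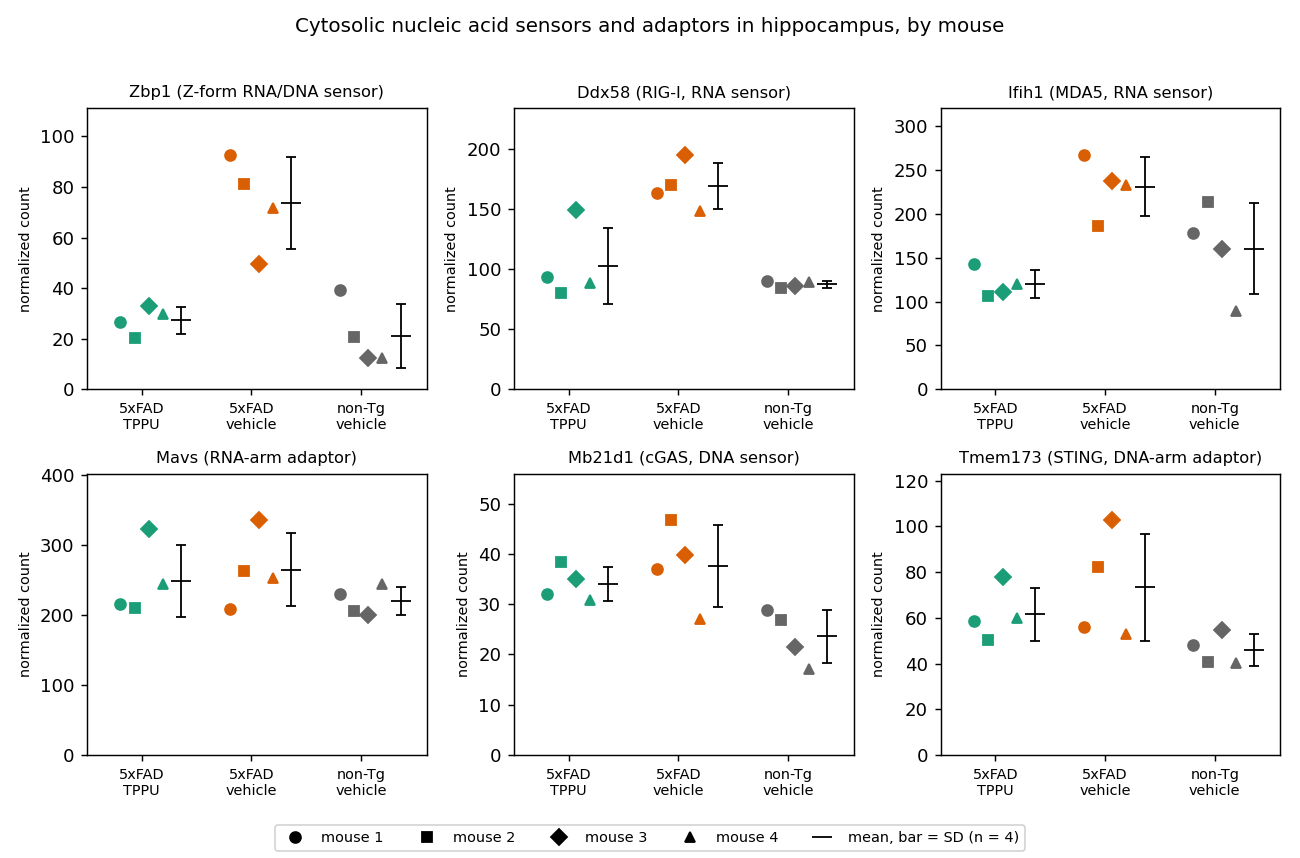
Normalized counts (vertical axes, from 0) of the 6 genes in each of the 12 mice, with 5xFAD TPPU, 5xFAD vehicle and non-transgenic vehicle mice from left to right in each panel; symbols mark mouse numbers and the bars show mean ± SD (n = 4). Zbp1 in vehicle-treated 5xFAD mice, at 49.7 to 92.7, lies above all other mice, and Mavs overlaps across the 3 groups.

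The RNA sensor RIG-I, encoded by Ddx58, also separated the genotypes. Ddx58 had 93.8, 80.0, 150 and 88.5 normalized counts in TPPU-treated 5xFAD mice, 164, 170, 195 and 149 in vehicle-treated 5xFAD mice, and 90.6, 84.4, 86.0 and 89.7 in non-transgenic mice. The non-transgenic values were tightly grouped, and 3 of the 4 TPPU-treated mice, at 80.0 to 93.8, stood around them. TPPU mouse 3, at 150, stood just above the lowest vehicle-treated 5xFAD mouse, so those groups overlapped by that mouse. Ddx58 rose 1.91-fold in vehicle-treated 5xFAD over non-transgenic mice (169.5 ± 19.5 and 87.7 ± 2.96, SD, n = 4 each; log2 change 0.94, SE 0.19, limma adjusted p = 0.00348). This call ended after quantile normalization, where the log2 change was 0.26 (adjusted p = 0.163).

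MDA5, the sensor of long double-stranded RNA encoded by Ifih1, was called by limma neither between the treatments (adjusted p = 0.13) nor between the genotypes (adjusted p = 0.12). Ifih1 had 143, 107, 110 and 120 normalized counts in TPPU-treated 5xFAD mice, 267, 186, 237 and 233 in vehicle-treated 5xFAD mice, and 178, 213, 159 and 89.7 in non-transgenic mice. All 4 TPPU-treated mice lay below all 4 vehicle-treated 5xFAD mice, as for 4.32% of tested genes, and 3 of the 4 non-transgenic mice lay above all TPPU-treated ones. The groups overlapped between the genotypes (log2 change 0.58, 95% interval 0.06 to 1.10). The spread among non-transgenic mice was wide, with a coefficient of variation of 32.5%, and non-transgenic mouse 4, the lowest, is one of the mice with high Ttr. Without both such mice the log2 change was 0.25.

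Near the transcription starts of both RNA helicase genes lies the letter pattern of the interferon-stimulated response element, the DNA site through which interferon factors act. The pattern, GAAA and then GAAAC with any 2 bases between them, was searched on both strands from 250 bases before to 50 bases after each start in RefSeq (GRCm38.p6), with Mb21d1 matched under its current symbol Cgas. It was found in 2 of the 4 members with an entry (Ddx58 and Ifih1, not Mavs or Cgas), and in 0.944% of 27025 genes. No match says only that these letters are not in that window. Of the tested genes of the lists described below, 4 of 10 interferon-induced genes, 1 of 2 other sensors, 0 of 13 downstream signalling genes and 0 of 3 interferon receptor genes with an entry held it. The stretches around the matches are shown so that the 2 sensors can be set against the 4 interferon-induced genes and Oas1g of the other sensors; capitals mark the match, in either orientation, each sequence reads 5′ to 3′ on the gene's strand, and Ifitm3 holds 2 matches.
Ifih1 (chr2:62646206-62646235, minus strand): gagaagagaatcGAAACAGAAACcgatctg
Ddx58 (chr4:40239804-40239833, minus strand): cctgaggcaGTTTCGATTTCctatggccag
Cxcl10 (chr5:92349082-92349111, minus strand): cacgctttgGAAAGTGAAACttacctcact
Slfn8 (chr11:83020839-83020868, minus strand): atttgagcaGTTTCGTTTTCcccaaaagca
Ifitm3 (chr7:141010714-141010743, minus strand): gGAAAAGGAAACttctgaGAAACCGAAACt
Gbp2 (chr3:142620594-142620623, plus strand): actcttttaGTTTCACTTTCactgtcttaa
Oas1g (chr5:120887611-120887640, minus strand): ccttctcggGAAATGGAAACtgaaaatcta
In Ifih1 the match runs from base 33 to base 43 of the transcribed side and in Ddx58 from base 2 to base 12, counting the start as 1. A match of letters is a description of the sequence and not a measured binding site.

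Mavs, the adaptor shared by RIG-I and MDA5, overlapped across the groups. It had 216, 210, 323 and 245 normalized counts in TPPU-treated 5xFAD mice, 209, 264, 336 and 253 in vehicle-treated 5xFAD mice, and 230, 206, 201 and 244 in non-transgenic mice. Mouse 3 of each 5xFAD group was the highest of its group, and the remaining 10 mice stood between 201 and 264. The log2 change between the genotypes was 0.25 (95% interval -0.13 to 0.63, adjusted p = 0.376), and its sign turned after median centring (-0.04) and quantile normalization (-0.22).

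The DNA arm was measured at low counts. Mb21d1, the gene for cGAS, had 32.0, 38.4, 35.0 and 30.9 normalized counts in TPPU-treated 5xFAD mice, 36.9, 46.6, 39.7 and 26.9 in vehicle-treated 5xFAD mice, and 28.7, 26.8, 21.5 and 17.2 in non-transgenic mice. The TPPU-treated mice lay above every non-transgenic mouse, whereas vehicle-treated 5xFAD mouse 4 lay among the non-transgenic ones. In the counts before scaling, TPPU-treated mice (30 to 36) and non-transgenic mice (18 to 33) overlapped. All 4 non-transgenic mice, TPPU mice 1 and 4 and 5xFAD vehicle mouse 4 lay within that range of Uty, so the same limit applies on both sides of the comparisons. Mb21d1 rose 1.57-fold in vehicle-treated 5xFAD over non-transgenic mice (log2 change 0.65, SE 0.20, adjusted p = 0.0445). The call held in 3 of 12 fits that left out 1 mouse (without TPPU mouse 2, 5xFAD vehicle mouse 4 or non-transgenic mouse 1; adjusted p 0.016 to 0.126 over the 12), and it ended after median centring (log2 change 0.36, adjusted p = 0.229) and quantile normalization (0.09, adjusted p = 0.793).

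Tmem173, the gene for STING, had 58.6, 50.2, 77.7 and 59.7 normalized counts in TPPU-treated 5xFAD mice, 55.8, 82.1, 103 and 52.9 in vehicle-treated 5xFAD mice, and 47.9, 40.7, 54.7 and 40.1 in non-transgenic mice. All 3 groups overlapped, with mouse 3 the highest in each. The log2 change between the genotypes was 0.63 (95% interval 0.13 to 1.12) and missed the threshold (adjusted p = 0.0793). It passed without 5xFAD vehicle mouse 4 (0.76, adjusted p = 0.0463). Its sign turned after quantile normalization (-0.09).

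In the comparison of vehicle-treated 5xFAD with non-transgenic mice, which asks what the transgenes do to these transcripts, 3 of the 6 genes were therefore called higher (Zbp1, Ddx58 and Mb21d1) and 0 lower, where limma called 18.7% of the 695 tested genes higher and 0% lower. The median log2 change of the 6 genes was 0.64, against 0.13 over all tested genes. At an unadjusted p under 0.05 all but Mavs were higher, as were 28.1% of tested genes, while 1.01% were lower. Groups were fully apart, with 5xFAD higher, for Zbp1 and Ddx58, as for 21.6% of tested genes, and 0.144% were apart with 5xFAD lower. Among mice of high and of low Y-linked counts, 2 against 2 in each, the log2 differences were 1.39 and 2.35 for Zbp1, 0.91 and 0.96 for Ddx58, and 0.54 and 0.76 for Mb21d1. Without both mice with high Ttr, Zbp1 and Ddx58 were still called (log2 change 1.56 and 0.96, adjusted p = 0.017 for both) and Mb21d1 was not (0.51, adjusted p = 0.156).

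**Figure D2:**
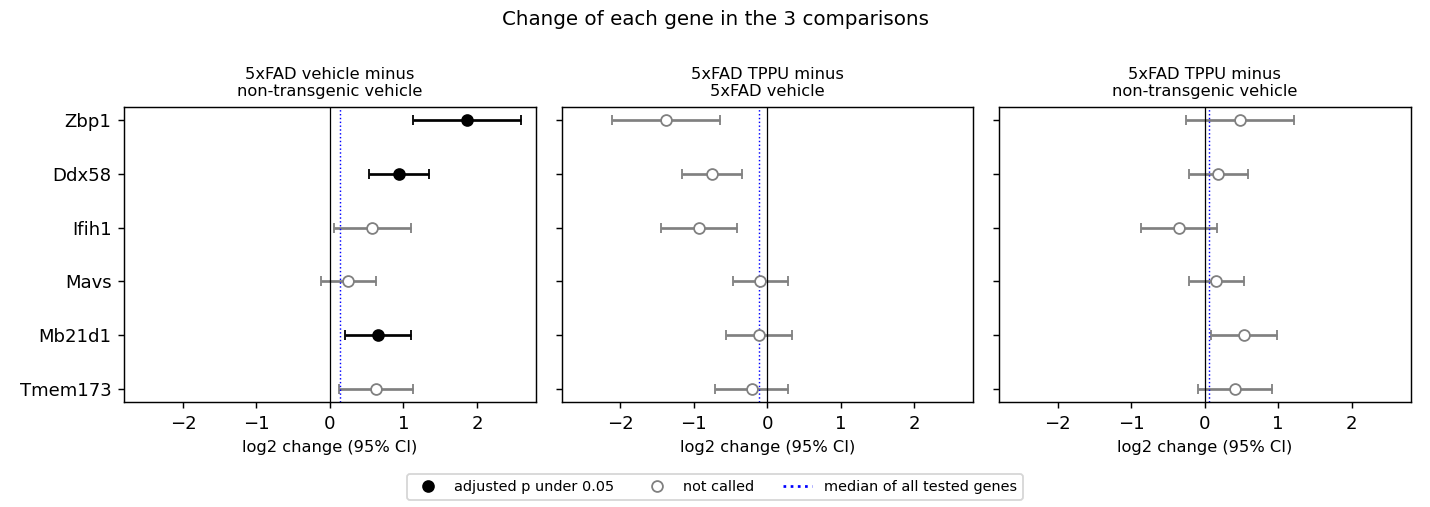
Log2 change of each gene (horizontal axes) in the 3 comparisons, with 95% confidence intervals from limma; filled points have an adjusted p under 0.05 and the dotted line is the median of all 695 tested genes. Zbp1, Ddx58 and Mb21d1 are filled in the comparison of genotypes, and no point is filled in the others.

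The comparison of TPPU-treated with vehicle-treated 5xFAD mice asks what inhibiting the hydrolase does in the model. None of the 6 genes passed the threshold, although the estimates for Zbp1, Ifih1 and Ddx58 were further below 0 than those for the adaptors and cGAS. The log2 change was -1.38 for Zbp1 (95% interval -2.12 to -0.65), -0.93 for Ifih1 (-1.45 to -0.41) and -0.75 for Ddx58 (-1.16 to -0.34), each with a limma adjusted p of 0.13. In linear terms these are 2.61-fold, 1.91-fold and 1.68-fold lower levels in TPPU-treated mice. Among the 695 tested genes they ranked 7, 10 and 9 by limma's unadjusted value.

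The other genes gave small estimates whose intervals reach both sides of 0. They were -0.21 for Tmem173 (95% interval -0.71 to 0.29, adjusted p = 0.623), -0.12 for Mb21d1 (-0.56 to 0.33, 0.785) and -0.09 for Mavs (-0.47 to 0.28, 0.793). After quantile normalization all 3 estimates were above 0, at 0.20, 0.19 and 0.23, and after median centring so were those of Mb21d1 (0.10) and Mavs (0.12). The estimates of Zbp1, Ifih1 and Ddx58 stayed below 0 there, at -1.06, -0.60 and -0.42 after quantile normalization.

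Limma called 0% of tested genes lower and 0% higher between the treatments, and 17.1% were lower at an unadjusted p under 0.05, the 3 sensors among them, as were 4.32% of genes with groups fully apart, here Zbp1 and Ifih1. The median log2 change was -0.48 for the 6 genes and -0.12 for all tested genes. Both of these comparisons use the vehicle-treated 5xFAD mice, so their estimates are not independent. Without TPPU mouse 3, Ddx58 and Zbp1 were called lower (log2 change -0.94 and -1.47, adjusted p = 0.00972 and 0.0413), with 39 genes called lower in all. Among mice of high and of low Y-linked counts the log2 differences were -1.06 and -1.71 for Zbp1, -0.84 and -1.03 for Ifih1, and -0.90 and -0.60 for Ddx58.

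**Figure D3:**
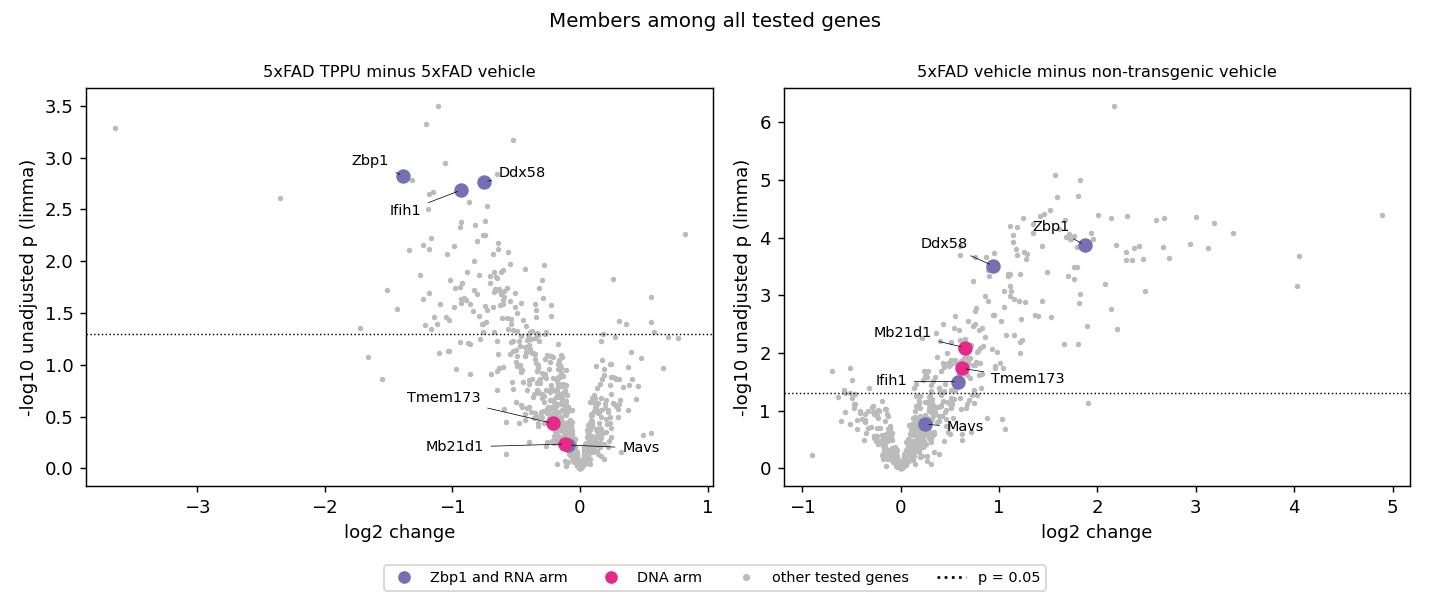
Log2 change (horizontal axes) against the -log10 of limma's unadjusted p (vertical axes) for all 695 tested genes, TPPU against vehicle in 5xFAD mice at left and vehicle-treated 5xFAD against non-transgenic mice at right. At left Zbp1, Ifih1 and Ddx58, at ranks 7, 10 and 9, lie far from Mavs, Mb21d1 and Tmem173, and at right all of the 6 genes but Mavs lie above the dotted threshold line.

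TPPU-treated 5xFAD and non-transgenic mice, the comparison of what is left under treatment, gave no call among the 6 genes, and limma called 0% of tested genes higher and 0% lower, with 13.7% higher and 1.01% lower at an unadjusted p under 0.05. The estimates were 0.54 for Mb21d1 (95% interval 0.09 to 0.98, adjusted p = 0.237), 0.49 for Zbp1 (-0.25 to 1.22), 0.41 for Tmem173 (-0.09 to 0.91), 0.19 for Ddx58 (-0.22 to 0.59), 0.16 for Mavs (-0.22 to 0.53) and -0.35 for Ifih1 (-0.87 to 0.16). Mb21d1 was the one member with groups fully apart in normalized counts, higher in TPPU-treated mice, as were 6.19% of tested genes. Its counts before scaling overlapped, at 30, 36, 32 and 30 in TPPU-treated mice and 33, 27, 24 and 18 in non-transgenic mice. Without non-transgenic mouse 1 the estimate for Zbp1 was 0.82, and it was 0.30 without mouse 3 and 0.29 without mouse 4. That for Ifih1 was -0.19 without non-transgenic mouse 2 and -0.61 without mouse 4, and that for Mavs was 0.024 without TPPU mouse 3. Ddx58 lay below 0 after quantile normalization (-0.15) and without TPPU mouse 3 (-0.01).

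RNA and DNA sensing were set against each other within each mouse, where the scaling of the array cancels up to the pseudocount. The difference of log2 values between a DNA-arm gene and an RNA sensor was taken for 4 pairs, and the difference between the 2 adaptors was taken too. Under TPPU against vehicle in 5xFAD mice the difference moved by 0.82 for Mb21d1 minus Ifih1, by 0.72 for Tmem173 minus Ifih1, by 0.63 for Mb21d1 minus Ddx58 and by 0.54 for Tmem173 minus Ddx58, toward the DNA-arm gene in each. Some Mb21d1 values of both groups lay within the low range of Uty given above, and the part of such low counts in its pairs was not tested. The exact two-sided permutation p values over 70 arrangements were 0.0571, 0.0857, 0.0571 and 0.0571, where 0.0286 is the smallest that 4 against 4 mice allow, and none passed when adjusted over 15 tests (adjusted p 0.171 to 0.214). A pair at that smallest value would pass the adjustment only if many of the other tests reached it too, so these tests could hardly give a call. For the adaptors, Tmem173 minus Mavs, the difference moved by -0.12 (exact p = 0.457, adjusted p = 0.527).

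The largest of the 15 differences was Mb21d1 minus Ifih1 between TPPU-treated and non-transgenic mice, at 0.89, with values of -2.12 to -1.45 and of -2.95 to -2.32 that did not overlap (exact permutation p = 0.0286, adjusted p = 0.171). Among mice of high and of low Y-linked counts, the log2 difference between these groups was 0.054 and -0.76 for Ifih1, and 0.48 and 0.59 for Mb21d1. The limit on the low counts of Mb21d1 applies here too. Between the genotypes the 5 pair differences lay between -0.31 and 0.38 (exact permutation p 0.114 to 0.914). These pairs share genes and mice, so they are not independent of each other.

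**Figure D4:**
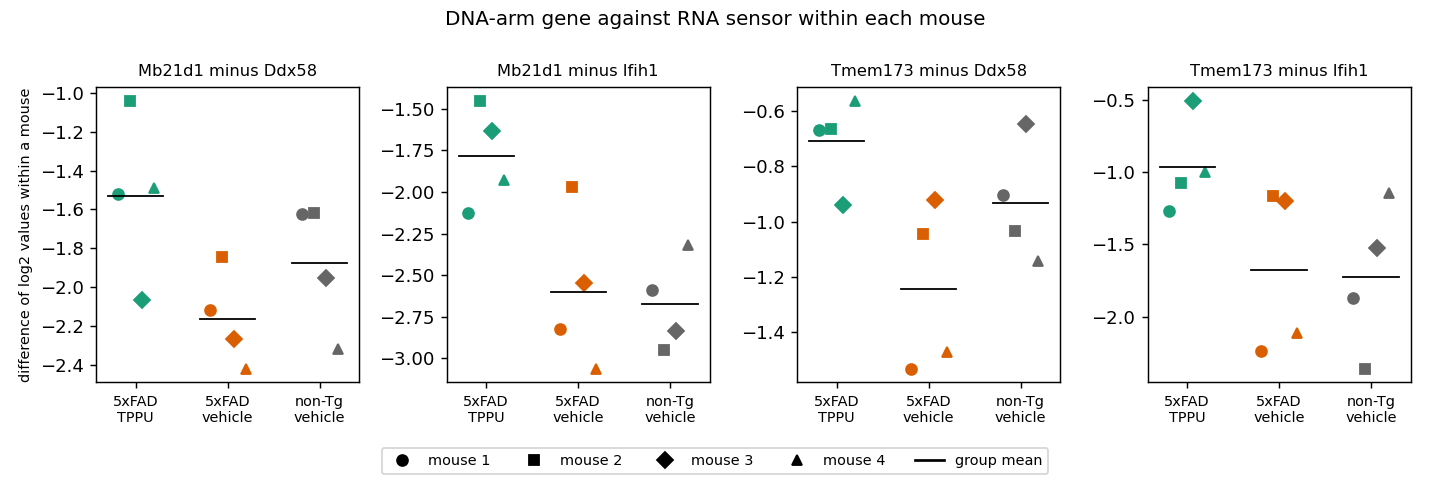
Difference of log2 values within each mouse (vertical axes) for 4 pairs of a DNA-arm gene and an RNA sensor, with 5xFAD TPPU, 5xFAD vehicle and non-transgenic vehicle mice from left to right and lines at the group means. The mean of TPPU-treated mice is above that of vehicle-treated 5xFAD mice in all 4 panels, by 0.54 to 0.82, with overlapping mice in each.

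The genes around the sensors were described from lists, of which 3 other sensors, 16 downstream signalling genes, 4 genes of interferon receptors and their factors and 11 interferon-induced genes were tested. Interferon-induced genes were called higher in vehicle-treated 5xFAD than in non-transgenic mice in 9 of 11 cases and lower in 0, with a median log2 change of 1.22. Over all tested genes 18.7% were called higher, with a median of 0.13. Cxcl10, an interferon-induced chemokine, rose by 2.14 on the log2 scale (87.2 ± 54.2 and 15.8 ± 4.70 normalized counts in 5xFAD and non-transgenic mice, SD, n = 4 each). Slfn8, of the Schlafen family, rose 3.53-fold (86.8 ± 4.36 and 24.7 ± 7.61), and Psmb8, an immunoproteasome subunit, rose 3.29-fold (508 ± 82.7 and 161 ± 64.8). The non-transgenic means of Cxcl10 and Slfn8 lay within the 15.2 to 33.5 of Uty in mice with low Y-linked counts. Whether they stand above the probe background was not tested. Under TPPU against vehicle none of the 11 was called, with all 11 estimates below 0 and a median of -1.15. Slfn8 stood at 42.5 ± 12.6 and 86.8 ± 4.36 (log2 change -1.06, limma adjusted p = 0.13) and Psmb8 at 238 ± 89.6 and 508 ± 82.7 (-1.15, adjusted p = 0.13) in TPPU-treated and vehicle-treated 5xFAD mice. Between TPPU-treated and non-transgenic mice 0 of 11 were called, with a median log2 change of 0.19 and the smallest p values for Slfn8 (0.76, adjusted p = 0.175) and Psmb8 (0.56, adjusted p = 0.418).

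Downstream of the sensors, 2 of 16 signalling genes were called higher in vehicle-treated 5xFAD mice and 0 lower, with a median log2 change of 0.08, against 18.7% higher and a median of 0.13 over all tested genes. They were Irf7, the interferon-induced factor that amplifies the response (1.82-fold, 85.1 ± 17.8 and 46.5 ± 9.90, adjusted p = 0.0322), and Casp8, a protease of death receptor and RIP kinase complexes (1.69-fold, adjusted p = 0.0214). Under TPPU against vehicle 0 of 16 were called by limma, and the smallest p values belonged to Irf7 (37.0 ± 11.5 and 85.1 ± 17.8, log2 change -1.21, adjusted p = 0.117) and to Ikbke, the gene for IKK-epsilon (19.8 ± 6.28 and 35.8 ± 5.39, -0.87, adjusted p = 0.134). The TPPU mean of Ikbke lay within the low range of Uty, so the same limit applies. Between TPPU-treated and non-transgenic mice Irf3, the factor that both adaptors activate, stood at 356 ± 11.1 and 432 ± 31.7 (log2 change -0.27, adjusted p = 0.262) and Ripk1, a kinase that ZBP1 engages, at 59.8 ± 12.7 and 44.3 ± 9.63 (0.42, adjusted p = 0.395).

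Of interferon receptor genes and their factors, 2 of 4 were called higher between the genotypes, against 18.7% of all tested genes. One of them, the interferon regulatory factor Irf1, rose 1.52-fold (242 ± 46.4 and 160 ± 36.8 in 5xFAD and non-transgenic mice, SD, n = 4 each, limma adjusted p = 0.045). Under TPPU against vehicle 0 of 4 were called, and Irf1 stood at 185 ± 18.6 and 242 ± 46.4 (log2 change -0.37, adjusted p = 0.325). Among the other sensors, Tlr7, the endosomal receptor for single-stranded RNA, rose 2.63-fold between the genotypes (119 ± 31.4 and 43.7 ± 5.76, adjusted p = 0.0167), the one call of 3. Under TPPU against vehicle it stood at 63.2 ± 28.8 and 119 ± 31.4 (log2 change -1.02, adjusted p = 0.212), and Oas1g, an oligoadenylate synthetase, at 24.7 ± 8.42 and 31.5 ± 5.21 (-0.38, adjusted p = 0.413). Both means of Oas1g lay within the low range of Uty.

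Microglial markers are given beside these genes. Limma called 10 of 12 microglial markers higher in vehicle-treated 5xFAD than in non-transgenic mice and 0 of 12 in either direction under TPPU against vehicle, where their median log2 change was -0.58. Their summed level was 7065 to 20740 normalized counts in TPPU-treated 5xFAD, 14446 to 30657 in 5xFAD mice on vehicle, and 5828 to 6925 in the non-transgenic group, with none at 0. TPPU mouse 3, the one with Ddx58 at 150, had the 20740, and 5xFAD vehicle mouse 3, with the highest Ddx58, Mavs and Tmem173 of its group, had the 30657. Within the vehicle-treated 5xFAD group Zbp1 and Ifih1 ran otherwise, and mouse 3 had the lowest Zbp1 of that group (49.7). Mouse 1 of that group, one of the mice with high Ttr, had its lowest sum (14446) and its highest Zbp1 (92.7) and Ifih1 (267). In TPPU-treated mice Zbp1 followed the order of the sums, from 20.3 in mouse 2 (7065) to 32.8 in mouse 3 (20740). Ifih1 did not, with its highest value, 143, in mouse 1 (12161). Non-transgenic mouse 1 had the highest sum (6925) and Zbp1 (39.2) of its group, and mouse 2, with the lowest sum (5828), the highest Ifih1 (213). In these bulk samples more microglia and more RNA per cell cannot be told apart, and the part of the markers in the changes above was not tested. Over all tested genes limma called 18.7% higher and 0% lower between the genotypes. Astrocyte markers had 1 of 5 called higher in that comparison, and 0 of 8 neuronal, 0 of 8 oligodendrocyte, 0 of 5 endothelial and 0 of 2 lymphocyte markers were called. All 8 oligodendrocyte markers had estimates below 0 (median log2 change -0.44, against 0.13 over all tested genes), and their part in the changes was not tested. The 9 lymphocyte markers in the table summed to 115 to 133, 124 to 200 and 84.2 to 125 normalized counts in TPPU-treated 5xFAD, vehicle-treated 5xFAD and non-transgenic mice.

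**Figure D5:**
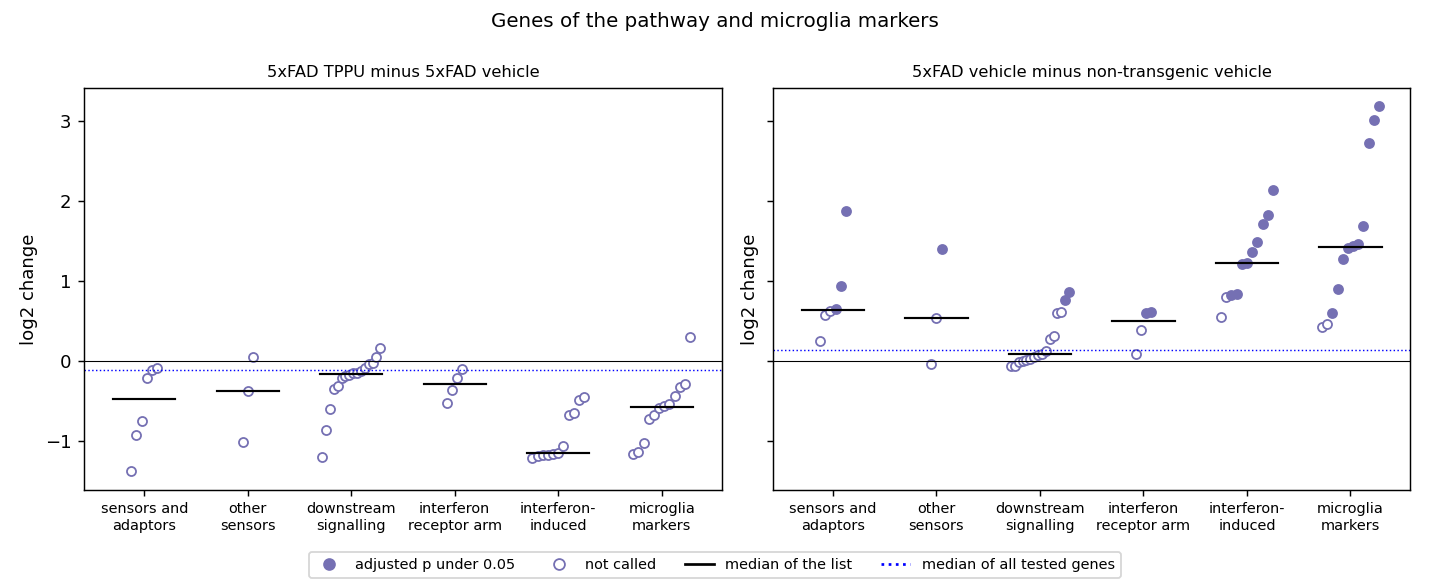
Log2 change (vertical axes) of each tested gene in the lists of sensors and adaptors, other sensors, downstream signalling, interferon receptor arm, interferon-induced genes and microglia markers, with TPPU against vehicle in 5xFAD mice at left and vehicle-treated 5xFAD against non-transgenic mice at right. Lines give the list medians and filled points the calls: at right 9 of 11 interferon-induced genes are filled, and at left no point is, with medians of -1.15 for interferon-induced genes and -0.16 for downstream signalling.

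Each of the 6 genes was also described by the genes with the nearest profiles over the 12 mice. The likeness of log2 levels was measured as Pearson's r over the 12 mice, as a description, since the mice share groups; r of the deviations from group means is given second. Ddx58 was closest to Ctse, a protease of myeloid cells (0.987 and 0.944), and Gpr183, a receptor for oxysterols (0.959 and 0.863), was among its 3 nearest. Zbp1 was closest to Psmb8 (0.895 and 0.568), Slfn8 (0.895 and 0.543) and Cytip (0.877 and 0.607). Ifih1 had Pik3r1, a regulatory subunit of phosphoinositide 3-kinase (0.827 and 0.819), Cd74, the MHC class II invariant chain (0.812 and 0.598), and H2-T23, a non-classical MHC class I gene (0.805 and 0.775).

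Mavs was closest to the checkpoint kinase gene Chek2 (0.931 and 0.968), Ifnar2 (0.915 and 0.912) and Pdpn (0.902 and 0.919). Tmem173 was closest to the DNA repair gene Mgmt (0.957 and 0.946), the microglial chemokine receptor gene Cx3cr1 (0.912 and 0.872) and Hif1a (0.896 and 0.82). Mb21d1 had Lrrc3 (0.834 and 0.543), Il1a, an interleukin 1 gene (0.816 and 0.595), and Fas, a death receptor gene (0.805 and 0.487). None of the 6 genes was among the 3 nearest of another, which says little about their likeness when 695 tested genes compete for 3 places. Correlations between the 6 genes are not given here.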

How the data were processed

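Per the labels, the authors normalized nCounter probe counts with the geometric mean of 10 housekeeping genes and deposited them as 1 table of linear signal values; the sources used here give no software, version or background subtraction. Dividing each mouse's values by 1 factor (0.871 to 1.10) left whole numbers (100% within 0.01). These, taken as probe counts, set the counting precision. The test was limma's, on log2(value + 1), in version 3.58.1 (R 4.3.3), with all 3 groups in 1 fit (9 residual degrees of freedom, variance trend), for 695 genes with a mean of at least 20; 61 were left out. Calls had a Benjamini-Hochberg adjusted p under 0.05 over all tested genes. Pairs used exact permutation tests (scipy 1.17.1), and figures matplotlib 3.10.9 in Python 3.11.15. Members, lists and naming rule (up to 3 called genes per list and direction, otherwise the 2 smallest p) were chosen with earlier results of these data known. The procedure was tested on simulated data. Promoters came from RefSeq, GRCm38.p6. Alternatives were other pseudocounts, filters, scalings, variance models, blocks, group subsets, voom weights (added after seeing the data) and leaving out mice; planned fits of count models were not run. Items withheld from this text are not reported here.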

Additional observations from a re-analysis of the deposited data

How the results depend on the processing

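Of 462 alternative values for the 18 changes of single genes, 429 kept direction and side of the threshold. For the pairs 217 of 225 kept both, but there only the direction could readily change. Even that was fixed without a mouse of the third group and with same-numbered mice as pairs. The smallest exact permutation p of 4 against 4 mice is 0.0286 before adjustment over 15 tests, so the side of the threshold was nearly fixed. Of 156 counts of called genes, 141 stayed within 1.5-fold. Between the genotypes (5xFAD vehicle minus non-transgenic), Zbp1 was called in each alternative that tested it. Quantile normalization gave Ddx58 0.26, Mb21d1 0.093, Mavs -0.22 and Tmem173 -0.093 log2, and 82 genes higher and 104 lower, against 130 and 0; median centring gave Mb21d1 0.36, Mavs -0.037 and 55 genes lower. These scalings shift the array medians, which differed by 0.29 between these groups and by -0.21 between the treatments. Mb21d1 lost its call also with no filter (0.65, adjusted p = 0.0519), array weights (0.58, 0.0711), only the groups compared (0.65, 0.0899) and without both mice with high Ttr (0.51, 0.156); the cause was not tested, and Mb21d1 and Zbp1 fall under a minimum mean of 50. For TPPU minus vehicle, array weights called Zbp1 (-1.39, adjusted p = 0.0433) and Ddx58 (-0.80, 0.0339), with 1 gene higher and 43 lower; quantile normalization gave Mavs 0.23, Mb21d1 0.19 and Tmem173 0.20, and median centring Mavs 0.12 and Mb21d1 0.10. For TPPU minus non-transgenic, array weights called 52 genes higher and 3 lower and median centring 12 higher, and quantile normalization gave Ddx58 -0.15. A pseudocount of 10 gave -0.049 for Mb21d1 minus Ifih1 and -0.0049 for Tmem173 minus Ifih1 between the genotypes.

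Without 1 mouse at a time, the log2 changes between the genotypes ran from 1.68 to 2.21 (Zbp1), 0.87 to 1.00 (Ddx58), 0.33 to 0.74 (Ifih1), 0.13 to 0.36 (Mavs), 0.51 to 0.80 (Mb21d1) and 0.45 to 0.76 (Tmem173), with 97 to 148 genes higher and 0 to 1 lower. For TPPU minus vehicle they ran from -1.56 to -1.25 (Zbp1), -0.94 to -0.64 (Ddx58), -1.03 to -0.86 (Ifih1), -0.23 to 0.026 (Mavs, above 0 without 5xFAD vehicle mouse 3), -0.26 to -0.0049 (Mb21d1) and -0.35 to -0.04 (Tmem173), with 0 to 39 genes lower (39 without TPPU mouse 3). For TPPU minus non-transgenic, Ddx58 ran from -0.00597 to 0.29, Zbp1 from 0.29 to 0.82, Ifih1 from -0.61 to -0.19, Mavs from 0.024 to 0.23, Mb21d1 from 0.40 to 0.64 and Tmem173 from 0.29 to 0.50, with 0 to 59 genes higher (59 without TPPU mouse 2) and 0 to 1 lower. Between the genotypes Mb21d1 minus Ifih1 ran from -0.14 to 0.23 and Tmem173 minus Ifih1 from -0.17 to 0.24.

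Mouse numbers are shared by the groups, and whether they pair the mice is not settled by these values. Same-numbered mice had correlations of deviations from -0.366 to 0.388. Between the genotypes 0 of 8 mice correlated best with their own number, and in each comparison with TPPU-treated mice 5 of 8 did. With mouse number as a replicate block, 125 genes were called higher between the genotypes and Tmem173 passed (0.63, adjusted p = 0.0495); it changed no other call of the 6 genes.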
